A study of Mus musculus with 6 samples.

Results

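The genes described here carry out class I antigen presentation, and they are the immunoproteasome subunits Psmb8, Psmb9 and Psmb10, the peptide transporter chains Tap1 and Tap2, the loading factor Tapbp (tapasin), and the class I chains B2m, H2-K1 and H2-D1. They were chosen by name, with earlier results of these data known, out of 7931 genes with a tested probe set. The list of 9 genes does not take in every gene of the pathway. All 9 had at least 1 probe set above the filter on low signals, and together they had 25 probe sets, of which 20 were tested. The cells were C2C12 myotubes, made from an established mouse myoblast line by growth to confluence in 20% fetal bovine serum and 5 days in 2% horse serum. Each group had 3 arrays: myotubes kept for 16 h with 1% bovine serum albumin (BSA), and myotubes kept for 16 h with 500 µM palmitate, a saturated fatty acid coupled to BSA that was free of fatty acids. Replicates are numbered 1 to 3 in each group with no word on whether each was its own culture, and the p-values therefore speak only of the spread from array to array, which may be technical.

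Class I molecules show fragments of the cell's own proteins at the cell surface. The proteasome cuts proteins into peptides, TAP moves the peptides into the endoplasmic reticulum, and tapasin with other chaperones places them on a heavy chain paired with beta-2-microglobulin. In the immunoproteasome the catalytic subunits Psmb5, Psmb6 and Psmb7 are replaced by Psmb8, Psmb9 and Psmb10, and interferon-gamma is the classical inducer of the replacements, of TAP and of tapasin. In skeletal muscle class I molecules are normally sparse, and they are known to become prominent in inflammatory myopathies.

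Palmitate-treated myotubes had less transcript of the 3 immunoproteasome subunits, of both TAP chains and of tapasin, while B2m, H2-K1 and H2-D1 did not pass. Of the 9 genes, 6 fell (Psmb8, Psmb9, Psmb10, Tap1, Tap2 and Tapbp) and 0 rose in limma, against 12.3% of all genes tested that fell and 20.2% that changed in either direction. Because the list was chosen with earlier results of these data known, its counts may in part reflect that choice. At an unadjusted p under 0.05 the counts were 8 lower and 0 higher, against 19.8% lower and 13.7% higher of all genes tested. The median log2 fold change, palmitate over BSA, was -1.30 over the 9 genes and -0.051 over all genes tested. For 8 of the 9 all palmitate arrays lay below all BSA arrays, which held for 22.4% of all genes tested, and B2m was the exception. Without BSA replicate 2 the number that fell was 3 (Psmb8, Psmb9 and Tapbp), while calls over all probe sets went from 2609 to 1579. In RNA from a whole dish, fewer cells of a type and less RNA per cell cannot be told apart.

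**Figure D1:**
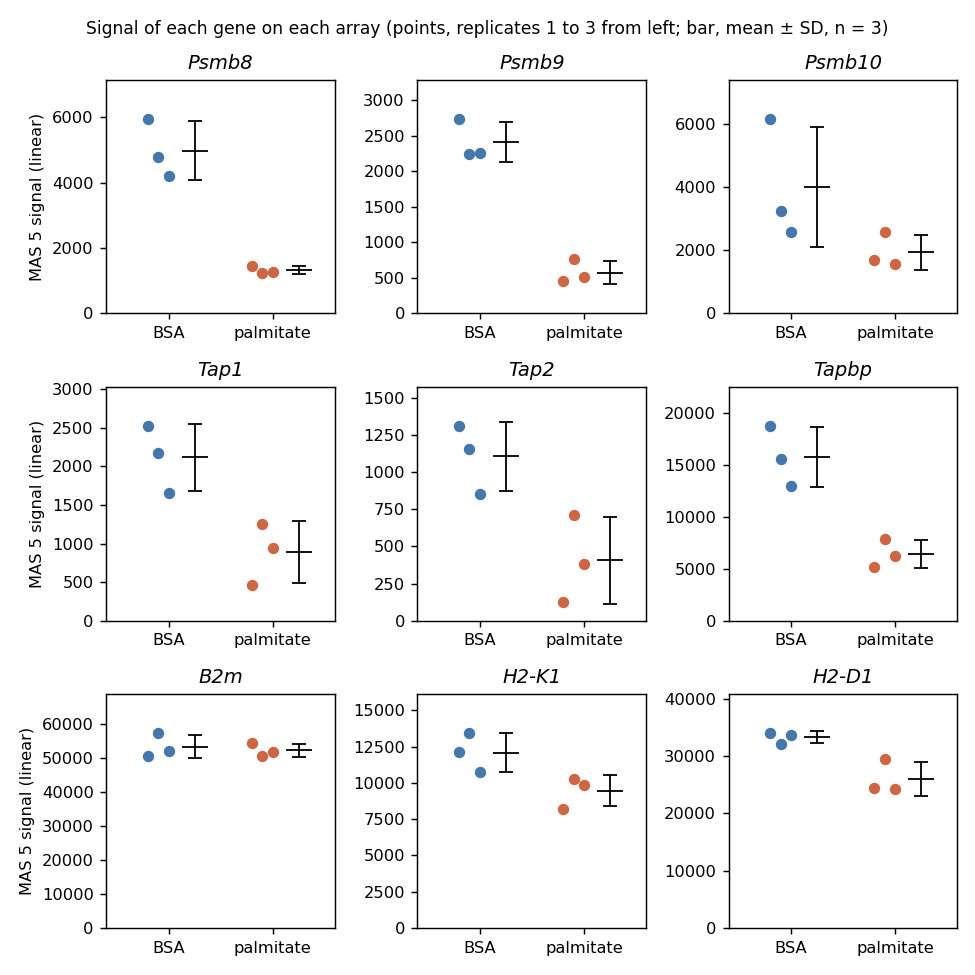
Signal of each of the 9 genes on each array, on a linear axis that starts at 0 in every panel, through the brightest probe set of the gene. Points are arrays and the bar beside them is the mean ± SD (n = 3); the palmitate points lie below the BSA points in every panel but that of B2m.

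Psmb9, Tap1, Psmb8 and Tap2 are neighbours in the class II region of chromosome 17, and Psmb9 and Tap1 are read in opposite directions from a shared stretch. That stretch is shown because both genes on its ends fell. It is the 225 bases between their RefSeq starts (GRCm38.p6, chr17:34187331-34187555, plus strand, Psmb9 on the left and Tap1 on the right). The upstream 250 bases of Psmb8 (chr17:34197945-34198194, plus strand), which fell, and of B2m (chr2:122147437-122147686, plus strand), which did not pass, are shown for contrast. The last pair of lines gives 30 bases of the promoters of both heavy chain genes, H2-K1 (chr17:34000428-34000457, minus strand) and H2-D1 (chr17:35262924-35262953, plus strand). The H2-K1 stretch lies inside the gene's RefSeq span, which begins further upstream. Capitals mark every match, on either strand, to 2 motifs: AANNGAAA (a core bound by interferon regulatory factors) and TTCNNNGAA (the gamma-activated site).
Psmb9-Tap1 between starts: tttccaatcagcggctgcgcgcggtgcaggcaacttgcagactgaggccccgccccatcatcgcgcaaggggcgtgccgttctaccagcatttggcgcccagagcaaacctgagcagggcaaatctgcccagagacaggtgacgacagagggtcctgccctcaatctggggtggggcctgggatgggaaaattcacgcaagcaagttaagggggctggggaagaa
Psmb8 upstream: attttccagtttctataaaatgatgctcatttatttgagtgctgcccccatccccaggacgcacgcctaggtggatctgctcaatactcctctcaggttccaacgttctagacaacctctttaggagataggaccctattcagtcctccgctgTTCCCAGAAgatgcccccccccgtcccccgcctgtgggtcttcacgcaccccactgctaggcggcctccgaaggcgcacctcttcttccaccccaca
B2m upstream: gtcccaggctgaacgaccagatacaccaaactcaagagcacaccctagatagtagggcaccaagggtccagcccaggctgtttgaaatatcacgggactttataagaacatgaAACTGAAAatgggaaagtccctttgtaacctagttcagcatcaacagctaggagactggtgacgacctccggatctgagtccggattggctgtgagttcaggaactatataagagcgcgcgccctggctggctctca
H2-K1 30 bases: gggattccccatctccacagTTTCACTTct
H2-D1 30 bases: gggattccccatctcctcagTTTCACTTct

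The core's letters were set after the promoters of B2m, H2-K1 and H2-D1 had been read, so that they match all 3, and its presence there is a product of that choice and no result. The 30 bases of H2-K1 and H2-D1, which end 2 bases after the core, differed at 1 position (A17T, counted from 1 at the 5′ end of the H2-K1 stretch). The core has 0 matches within 250 bases before the start of Psmb8, Psmb9, Psmb10, Tap1 and Tapbp, and 21.3% of all 32851 RefSeq promoter windows of this length hold it. The Psmb8 window has 1 match to the gamma-activated site, 97 bases before the start, and 7.02% of all windows hold one. A match describes letters, and its absence says only that these letters are not in this window. Sequences are from the RefSeq reference, and the sequence of the cells used here was not read. The set of promoter windows held 8 of the 9 genes, all but Tap2.

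Psmb8, which replaces Psmb5 in the immunoproteasome, had signals of 5957, 4773 and 4210 on the BSA arrays and 1466, 1252 and 1277 on the palmitate arrays. The groups were far apart and the palmitate arrays close together. The fall was 3.71-fold, a log2 fold change of -1.89 ± 0.18 (SE, n = 3 arrays per group, limma adjusted p = 3.09e-05). Psmb9, which replaces Psmb6, read 2741, 2241 and 2264 with BSA and 452.5, 761.1 and 511.8 with palmitate. It had the largest change of the 9, 4.29-fold lower at -2.10 ± 0.23 (limma adjusted p = 9.18e-05), and the groups did not overlap. Both calls held under all 18 alternatives, with log2 fold changes of -2.19 to -1.75 for Psmb8 and -2.40 to -1.92 for Psmb9.

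Psmb10, which replaces Psmb7, fell less and less firmly. Its signals were 6158, 3235 and 2582 with BSA and 1684, 2570 and 1563 with palmitate, so that BSA replicate 1 stood high and palmitate replicate 2 came within reach of BSA replicate 3. The log2 fold change was -0.98 ± 0.29 (limma adjusted p = 0.0364). The call ended without BSA replicate 1 (-0.61, limma adjusted p = 0.0958), BSA replicate 2 (0.0711), palmitate replicate 1 (0.0954) or palmitate replicate 3 (0.115), and also with no filter (0.0546) and with no intensity trend (0.102).

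None of the constitutive subunits that these replace passed the test. Psmb5, the chymotrypsin-like subunit, read 13790, 9570 and 8257 with BSA and 8661, 12215 and 9560 with palmitate, and the groups overlapped (-0.036 ± 0.20, limma adjusted p = 0.921). Psmb6, the caspase-like subunit, was at -0.15 ± 0.15 (adjusted p = 0.546). Psmb7, the trypsin-like subunit, lay higher on every palmitate array, with 19075, 17143 and 16144 against 22175, 24019 and 21551, at 0.37 ± 0.12 (adjusted p = 0.0535). Of the 3, limma called 0 in either direction, and 1 higher and 0 lower at an unadjusted p. Of all genes tested, 12.3% were called lower and 7.92% higher, and 19.8% and 13.7% at an unadjusted p. With 3 genes, 0 calls is near these shares. Psmb7 passed under 4 of 18 alternatives, namely 75th percentile scaling (adjusted p = 0.0408), the filter at the 60th percentile (0.0432), averaged probe sets (0.0351) and leaving out BSA replicate 1 (0.0401), and scaled to the hybridisation controls it was at 0.077 (adjusted p = 0.75).

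The difference, within an array, between an immunoproteasome subunit and the subunit it replaces does not move with the scaling of the array. With the BSA mean set to 0, Psmb8 minus Psmb5 was -0.15, 0.06 and 0.09 on the BSA arrays and -1.50, -2.22 and -1.84 on the palmitate arrays, a mean of -1.86 ± 0.36 (SD, n = 3), or a 3.62-fold unequal change. Psmb9 minus Psmb6 came to -1.95 ± 0.47 with palmitate (SD, n = 3; SD of 0.16 with BSA). For Psmb10 minus Psmb7 the mean was -1.35 ± 0.31 (SD of 0.53 with BSA). In each of the 3 pairs every palmitate array lay below every BSA array (exact permutation p = 0.1, two-sided, the smallest that 3 arrays against 3 allow, in each of the 3 comparisons), so no p under the threshold could be reached. The same order of arrays already held for Psmb8, Psmb9 and Psmb10 taken alone, as it did for 22.4% of all genes tested. On leaving out 1 array the means of the 3 pairs ran from -2.03 to -1.67, -2.22 to -1.80 and -1.56 to -1.05.

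**Figure D2:**
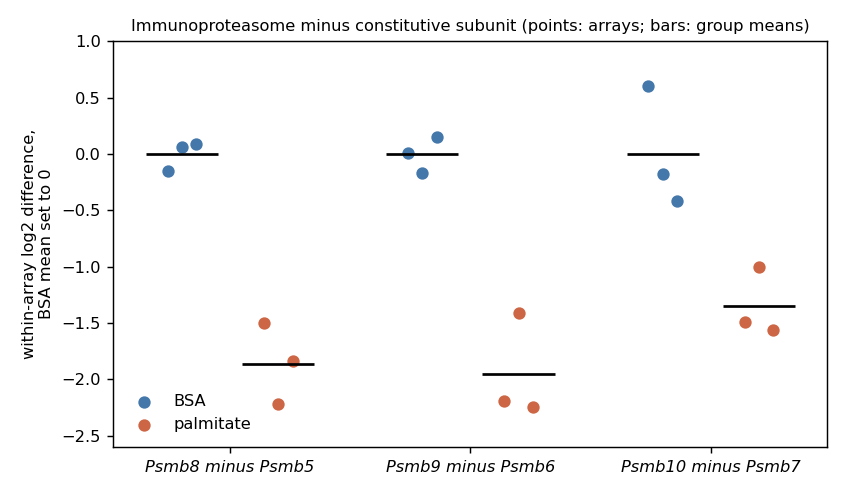
Within-array difference of log2 signal between each immunoproteasome subunit and its constitutive counterpart, with the BSA mean of each pair set to 0. Points are arrays and bars are group means; the palmitate means are -1.86, -1.95 and -1.35, and no palmitate point reaches a BSA point.

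The rest of the 20S core is the barrel that both kinds of proteasome share. Of 11 other core subunits tested, 1 rose and 0 fell in limma (1 and 0 at an unadjusted p), counts near the 7.92% higher and 12.3% lower of all genes tested, with log2 fold changes from -0.19 to 0.54 and a median of 0.12. The one that rose was Psmb2 (0.54 ± 0.13, limma adjusted p = 0.0159), a call that ended after hybridisation control scaling (adjusted p = 0.315), with no trend (0.0554), with the replicate block (0.0659) and without BSA replicate 2 (0.0735) or 3 (0.0527). Among 9 proteasome activators and assembly factors, limma called 1 lower and 1 higher, counts near the 12.3% and 7.92% of all genes tested. The alpha chain of the PA28 activator, Psme1, fell and Psme3, the PA28 gamma chain, rose. Psme1 read 7569, 7524 and 7340 with BSA and 3279, 4149 and 3433 with palmitate, a log2 fold change of -1.05 ± 0.15 (adjusted p = 0.00047) with groups well apart. Psme3 was at 0.84 ± 0.19 (adjusted p = 0.0104), and the call ended after hybridisation control scaling (0.54, adjusted p = 0.0756) and with its probe sets averaged (0.63, adjusted p = 0.0986). Psme2, the partner of Psme1, was not analysed here.

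The TAP transporter is a pair of half-transporters. Tap1 signals were 2524, 2172 and 1657 with BSA and 462, 1252 and 948.3 with palmitate, and palmitate replicate 1 was the lowest array. The log2 fold change was -1.35 ± 0.32, or 2.55-fold lower (limma adjusted p = 0.0123), and the call ended without BSA replicate 2 (adjusted p = 0.0503). The other 3 probe sets that the annotation pairs with Tap1 were under the filter, and 2 of them had higher palmitate means, at 170 with BSA and 425 with palmitate for the first and 38.5 and 152 for the second. For the first, every palmitate array lay above every BSA array. Untested, the mean log2 signals of the 3 differed by 1.29, 1.95 and 0.18, palmitate minus BSA, opposite in sign to the tested probe set. Tap2 read 1310, 1152 and 853.1 with BSA and 128.2, 708.2 and 379.5 with palmitate. Its groups did not overlap, but the palmitate arrays were widely spread and 1 of them lay under the filter's signal of 267.1. Tap2 had a log2 fold change of -1.74 ± 0.49 (adjusted p = 0.0282), which was -1.07 without palmitate replicate 1 (adjusted p = 0.0462). Its call ended with no filter (0.0526), with no trend (0.0751) and without BSA replicate 1 (0.0816) or 2 (0.0933).

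Tapasin bridges TAP to the empty class I molecule. The brighter Tapbp probe set read 18799, 15630 and 12956 with BSA and 5222, 7855 and 6264 with palmitate, 2.46-fold lower at -1.30 ± 0.18 (limma adjusted p = 0.000478), with the groups apart. The dimmer one was at -0.28 ± 0.20 (adjusted p = 0.387) with overlapping groups, so the 2 probe sets of Tapbp disagree in size. Averaged, they gave -0.79 (adjusted p = 0.00809). Erap1, which trims peptides in the endoplasmic reticulum, fell by 1.12 ± 0.21 on the log2 scale (limma adjusted p = 0.00309), from 1275, 1221 and 1243 to 623.7, 568.0 and 537.1. The calls of Tapbp and Erap1 held under all 18 alternatives.

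The general chaperones of the loading complex went the other way. Of 11 peptide trimming and loading genes besides the 9, limma called 5 higher and 1 lower (7.92% and 12.3% of all genes tested were called so), with a median of 0.42, and Erap1 was the 1 lower. The oxidoreductase Pdia3 read 2848, 4871 and 4360 with BSA and 6882, 8751 and 8736 with palmitate, a rise of 1.04 ± 0.20 (limma adjusted p = 0.00385). Calreticulin, Calr, rose by 0.59 ± 0.12 (adjusted p = 0.00422) and calnexin, Canx, by 0.58 ± 0.13 (adjusted p = 0.0112). These chaperones serve all glycoproteins of the endoplasmic reticulum, and Hspa5, its main Hsp70 chaperone, rose by 1.39 ± 0.14 (adjusted p = 4.14e-05). The peptidase Tpp2 of the cytosol rose by 0.73 ± 0.15 (adjusted p = 0.00635). After hybridisation control scaling the calls of Calr (0.29, adjusted p = 0.156), Canx (0.28, adjusted p = 0.185) and Tpp2 (0.43, adjusted p = 0.0828) ended. The call of Canx also ended without palmitate replicate 3 (adjusted p = 0.0576) and with no trend (0.0571), and that of Tpp2 with its probe sets averaged (0.35, adjusted p = 0.454).

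**Figure D3:**
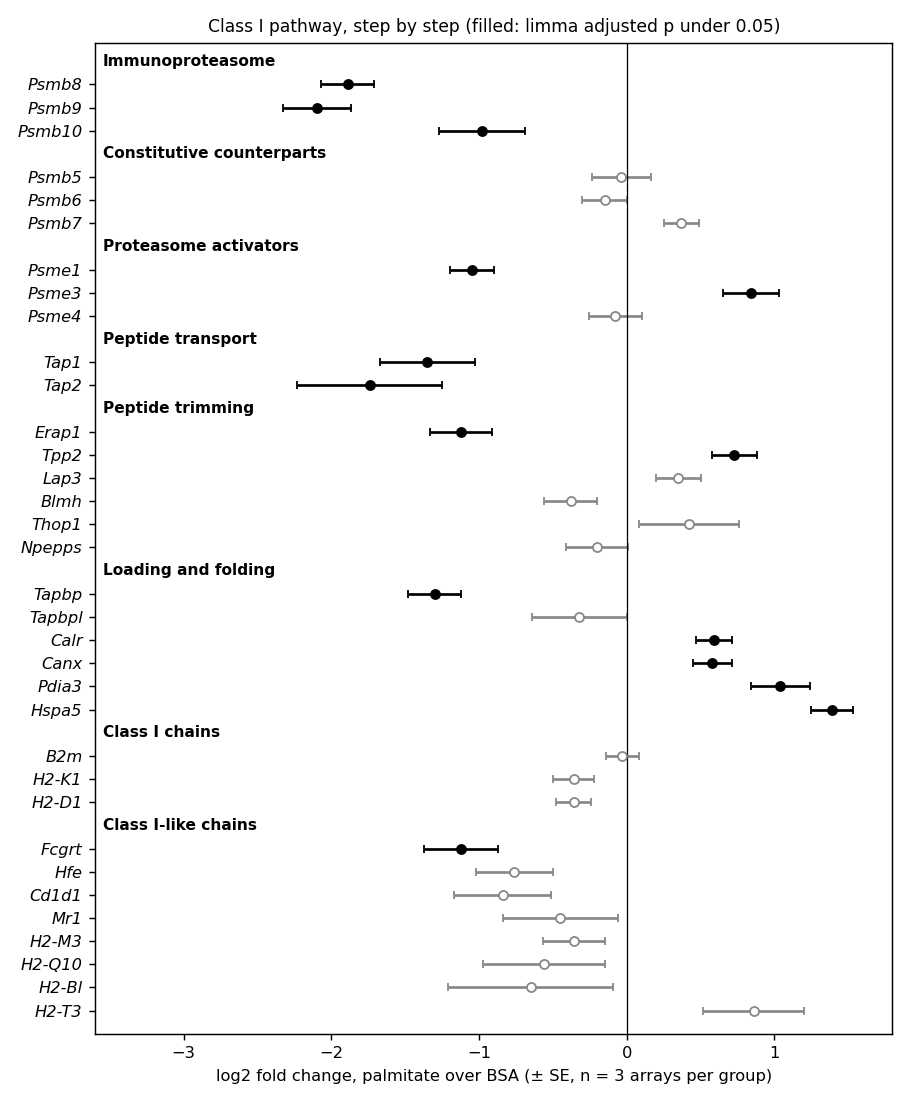
Log2 fold change, palmitate over BSA, ± SE (n = 3 arrays per group) for the genes of the pathway in the order of its steps, with filled points for limma adjusted p under 0.05. The immunoproteasome, TAP, Tapbp, Psme1 and Erap1 lie to the left of 0 (-2.10 to -0.98), the constitutive subunits between -0.15 and 0.37, and Calr, Canx, Pdia3 and Hspa5 to the right (0.58 to 1.39).

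B2m, the light chain that every classical class I molecule needs, was as bright with palmitate as with BSA. Its signals were 50614, 57260 and 52127 with BSA and 54233, 50616 and 51719 with palmitate, and the groups overlapped throughout. The log2 fold change was -0.030 ± 0.11 (limma adjusted p = 0.881), and a second probe set gave -0.13 ± 0.13 (adjusted p = 0.551). Its sign rests on the processing, being 0.0011 after 75th percentile scaling and -0.33 after hybridisation control scaling (adjusted p = 0.0883).

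The heavy chains lay between. The brightest H2-K1 probe set read 12096, 13426 and 10728 with BSA and 8231, 10252 and 9840 with palmitate. Every palmitate array was below every BSA array, by a small margin, at -0.36 ± 0.14 (limma adjusted p = 0.108). For H2-D1 the values were 34005, 32139 and 33761 against 24440, 29461 and 24242, at -0.36 ± 0.12 (adjusted p = 0.0594), again without overlap. Neither passed, and a p that misses the threshold does not show that they were equal in the 2 groups. After hybridisation control scaling both passed, at -0.65 (adjusted p = 0.00614) and -0.66 (adjusted p = 0.00502). H2-D1 also passed with quantile normalization (-0.40, adjusted p = 0.0366), with a filter at the 60th percentile (adjusted p = 0.0464) and without palmitate replicate 2 (-0.45, adjusted p = 0.0286).

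Heavy chain genes are alike in sequence, and a probe set may read several of them. All 4 probe sets of H2-K1 and 7 of 9 of H2-D1 carry the suffix by which the array's design marks probes that may bind other transcripts. The 4 of H2-K1 ran from -0.73 to 0.032 with 0 called (0 higher and 2 lower at an unadjusted p, which 15.2% and 17.3% of all probe sets tested met), and the 7 tested of H2-D1 from -0.75 to -0.17 with 1 called lower (-0.75 ± 0.21, limma adjusted p = 0.0295). Over all 9 genes, 7 of the 20 tested probe sets were called lower and 0 higher, against 10.6% and 8.63% of all probe sets tested (19.2% in either direction). All palmitate arrays lay below all BSA arrays for 19.6% of all probe sets tested. A further 3 probe sets that the annotation pairs with a member and other genes together were left out.

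**Figure D4:**
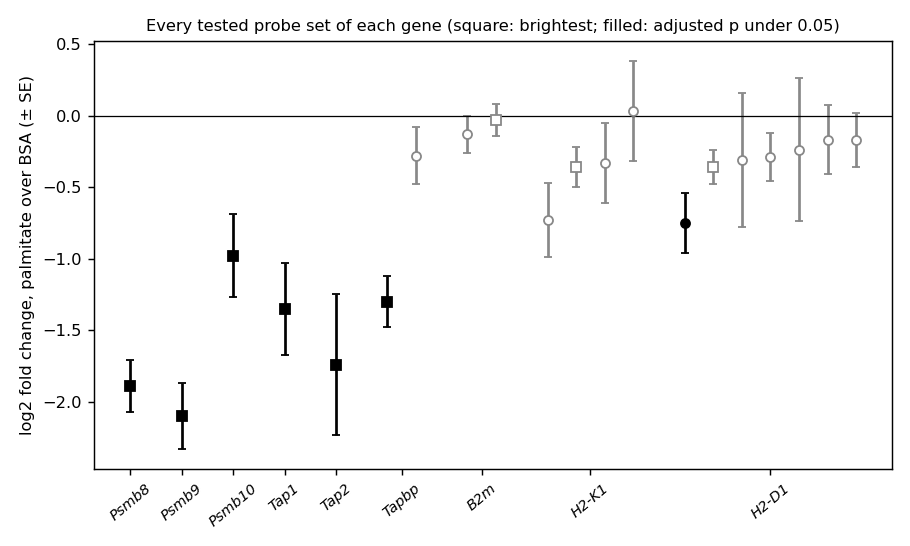
Log2 fold change, palmitate over BSA, ± SE for every tested probe set of the 9 genes (n = 3 arrays per group). Squares are the brightest probe set of a gene and filled symbols have a limma adjusted p under 0.05; H2-D1 has 1 filled symbol among 7, and the 2 probe sets of Tapbp stand at -1.30 and -0.28.

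Other class I and class I-like chains were mostly dim. At an unadjusted p, 3 of 8 tested were lower and 1 higher, beside 19.8% and 13.7% of all genes tested. The median was -0.60, beside -0.051 over all genes tested. After adjustment limma called 1 lower and 0 higher, and 1 of 8 is near the 12.3% lower of all genes tested. The one called was Fcgrt, the heavy chain of the neonatal Fc receptor, which also pairs with B2m, and which read 2595, 2111 and 1651 with BSA and 781, 1348 and 833.7 with palmitate (-1.12 ± 0.25, adjusted p = 0.00863). Of the class II list, 2 of 8 genes on the table passed the filter, and the protease Ctss fell (-1.30 ± 0.33, adjusted p = 0.0162), a call that ended without BSA replicate 2 (adjusted p = 0.051) or 3 (0.0517).

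Interferon receptors, their kinases and the factors they activate carry the inducing signal. Of 25 genes of this list tested, 2 fell and 1 rose in limma (3 and 1 at an unadjusted p), with a median of 0.0079. These counts are near or under the shares of all genes tested (12.3% lower and 7.92% higher), so they set the list apart in neither direction. The kinase Jak2 fell from 2877, 3896 and 3466 to 1962, 1893 and 2233 (-0.74 ± 0.17, limma adjusted p = 0.0108), and its call ended without BSA replicate 2 (adjusted p = 0.0632). The interferon receptor chain Ifnar2 (-0.59 ± 0.18, adjusted p = 0.0422) fell and the phosphatase Ptpn2 (0.75 ± 0.24, adjusted p = 0.0459), which acts on JAK kinases, rose, and each lost its call under 9 of 18 alternatives. A second Ifnar2 probe set read the other way (0.31, adjusted p = 0.367), and the average of both was -0.14 (adjusted p = 0.575). The transcription factor Irf1 read 3411, 3525 and 3823 with BSA and 2692, 4891 and 3676 with palmitate, at 0.025 ± 0.20 (adjusted p = 0.951), and its sign turned after hybridisation control scaling (-0.27). Nlrc5 was not analysed here.

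Tapbp, H2-K1, Psmb9, Tap1, Psmb8, Tap2 and H2-D1 lie in this order on that chromosome, Psmb9, Tap1, Psmb8 and Tap2 side by side, while B2m is on chromosome 2 and Psmb10 on chromosome 8. Of 83 other protein-coding genes between Tapbp and H2-D1, 38 were tested, and 2 fell and 4 rose, with a median log2 fold change of 0.019, beside 12.3% lower and 7.92% higher of all genes tested. The called ones, named after their values were seen, were the complement gene Cfb (-1.20 ± 0.18) and D17H6S56E-5 (-1.60 ± 0.15), and the zinc transporter Slc39a7 (0.91 ± 0.20), the chromatin reader Brd2 (0.60 ± 0.16) and the heat shock genes Hspa1b (2.79 ± 0.17) and Hspa1a (2.44 ± 0.30).

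The immunoproteasome's pattern over the 6 arrays was shared with other genes. As the mean log2 deviation of Psmb8, Psmb9 and Psmb10 from their BSA mean, that pattern was 0.40, -0.12 and -0.28 on the BSA arrays and -1.77, -1.39 and -1.81 on the palmitate arrays. Of genes outside the 9, the 5 with the smallest root mean square difference from it were the matrix protein Fbln2 (0.14 log2 units), the LIM protein Csrp2 (0.158), the dNTP hydrolase Samhd1 (0.174), the membrane protein Mxra8 (0.185) and the Wnt receptor Fzd2 (0.188). The subunits themselves were at 0.254 for Psmb8, 0.352 for Psmb9 and 0.519 for Psmb10. The 5 genes were picked as the nearest, so their smaller values come with that choice and are no result. A difference in the size of the change also raises this measure. Within the rest of the pathway the same measure was 0.279 for Tapbp, 0.427 for Tap1, 0.642 for Tap2 and 0.938 to 1.18 for the 3 presenting chains.

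Most tested markers listed for fibroblasts and for undifferentiated or dividing myoblasts fell, as did 6 of the 9 genes. Too few leukocyte and endothelial markers passed the filter (3 and 1) to say whether those lists moved. Of all genes tested, limma called 12.3% lower and 7.92% higher, and 13.7% were higher at an unadjusted p. Fibroblast markers fell in 7 of 8 tested cases, with a summed signal of 187818 to 221914 over 10 markers with BSA and 89400 to 96356 with palmitate. Markers of undifferentiated or dividing myoblasts fell in 6 of 9, their sum going from 35763 to 40212 with BSA to 21278 to 23113 with palmitate. The 6 were Id2, Id3, Vcam1 and the cell division genes Mki67, Top2a and Cdk1. Myf5, Cdh15 and Id1 were not called, and Pax7 and Pax3 lay under the filter. Myotube markers fell in 1 of 26 (Myod1), with sums of 303492 to 463630 and 325558 to 348760, so the labelled cell type was borne out in both groups. Leukocyte markers were dim, with 3 of 15 above the filter, 0 called (1 higher at an unadjusted p) and sums of 2559 to 3264 with BSA and 3411 to 3903 with palmitate, and of 8 endothelial markers 1 was above the filter and 0 were called at either p. No listed marker was at 0 on all arrays. The part of these shifts in the class I results was not tested.

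The deposited signals were already scaled to an equal mean on each array, which bears on every direction above. In all, 2609 of 13575 probe sets passed, of which 44.9% were higher, and scaling to 18 probe sets for RNAs added before hybridisation moved the median of all probe sets by -0.30 and that share to 13.7%. Their mean log2 signal was 12.473 to 12.664 on the BSA arrays and 12.729 to 12.955 on the palmitate arrays.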

How the data were processed

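The authors deposited 1 linear signal intensity for each probe set, computed with MAS 5 per the submitters' processing notes, and the arrays share a trimmed mean near 1500.5. Software settings are not given in the sources used here. Scan dates and detection calls were left unused here, so no batch was examined, and the number of arrays limits the precision. Intensities were put on the log2 scale with no offset. Of 22690 probe sets, 64 controls were set aside, and 13575 whose mean exceeded the 40th percentile (a signal of 267.1) were kept. limma 3.58.1 (R 4.3.3; lmFit, eBayes with trend) tested palmitate against BSA, two-sided, with p-values adjusted by Benjamini and Hochberg's method over all 13575 and a threshold of 0.05. The fit was tested on simulated data. A gene was represented by its brightest probe set (highest mean log2 signal), named through the platform annotation (20380 probe sets with 1 symbol, 691 with several, 1555 with none). All 9 symbols are in the RefSeq gene set of GRCm38.p6, and only the promoter windows lack Tap2. The array values have no genome build, and coordinates belong to the RefSeq sequences.

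The members and lists were chosen with earlier results of these data known. Besides all members, named genes were up to 6 called genes of each list by p, the 5 most alike in pattern, and Psmb5, Psmb6, Psmb7, Psme1, Erap1, Calr, Pdia3, Canx and Irf1. Of the marker lists, Myod1 and most markers of undifferentiated or dividing myoblasts are named. H2-Oa, a class II chain, stood in the class I list and lay under the filter. Alternatives were 4 scalings, offsets of 16 and 100, 2 filters, 2 variance settings, the replicate block, averaged probe sets and leaving out each array. Motif letters were chosen after promoter sequences of members had been read.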

Additional observations from a re-analysis of the deposited data

How the results depend on the processing

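Psmb8, Psmb9, Tapbp, Psme1 and Erap1 kept their direction and call under all 18 alternatives. Averaging took Tap1 under the filter and the stricter filter took Tap2 out, so those settings gave no value. Leaving out 1 array, the number of the 9 genes that fell ran from 3 to 7, their probe sets called lower from 3 to 7, and all probe sets called from 1579 to 2315 (833 to 1282 lower, 746 to 1085 higher), each lowest without BSA replicate 2. List counts then ran from 0 to 1 higher for the constitutive subunits, 0 to 1 higher for the other core subunits, 0 to 3 lower and 0 to 1 higher for interferon signalling, and 0 to 1 lower for class II. Log2 fold changes then ran from -0.067 to 0.022 for B2m and from -0.19 to 0.24 for Irf1. The sign turned for B2m without BSA replicate 2 (0.022), for Psmb5 without BSA replicate 1 (0.18) or palmitate replicate 1 (0.071), for Irf1 without BSA replicate 1 (-0.010) or palmitate replicate 2 (-0.19), for B2m after 75th percentile scaling (0.0011) and for Irf1 after hybridisation control scaling (-0.27). The cause was not tested.

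Scaling to the hybridisation controls lowers every log2 fold change by 0.30, and gave 3004 probe sets lower and 475 higher, 11 probe sets of the 9 genes lower, and list counts of 1 lower and 0 higher (other core subunits), 0 higher (activators), 2 lower and 2 higher (trimming and loading), 3 lower (class I-like) and 5 lower and 0 higher (interferon signalling). With no filter, 4 probe sets of the 9 genes were lower, and interferon signalling had 1 lower and 0 higher. With no trend there were 0 higher among other core subunits, 2 lower and 1 higher among class I-like chains, and 1 lower and 0 higher in interferon signalling, which also had 0 higher with robust variances. The constitutive subunits had 1 higher (Psmb7) with 75th percentile scaling and with the stricter filter, where class II had 0 lower, and Psmb7 also passed with averaged probe sets.

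No pairing of the arrays by replicate number was seen. Same-numbered arrays deviated from their group means with correlations of -0.233, -0.133 and 0.009, and 0 of 6 arrays correlated best with their own number. Deviations from a mean of 3 arrays are tied to one another, so these values cannot show that pairing was absent. With the replicate block 1973 probe sets passed, the same 6 genes of the 9 fell, and the other core subunits had 0 higher.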
